A study of Mus musculus with 12 samples.

Results

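The RNAs described here are the structural, non-coding RNAs of ribosomes, of the signal recognition particle and of small nuclear and cytoplasmic particles, as counted under repeat names in 2-cell mouse embryos. They were taken by annotation class (rRNA, srpRNA, scRNA and RNA), which gave 11 of the 18538 repeat names listed for each library. Class rRNA held LSU-rRNA_Hsa, SSU-rRNA_Hsa and 5S, class srpRNA held 7SLRNA, class RNA held 7SK, and class scRNA held BC1_Mm, 4.5SRNA, HY1, HY3, HY4 and HY5. The suffix Hsa marks a human consensus, which here names the mouse copies as well.

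The libraries held total RNA of C57BL/6 embryos, 1.5 days after fertilization, 6 libraries per genotype. KO embryos came from Kdm4a knockout oocytes and had no working maternal or paternal allele (m-/p-). The embryos labelled WT came from wild-type oocytes and kept the maternal allele (m+/p-). Since the sperm came from Kdm4a knockouts for both, all 12 libraries lacked the paternal allele, and the contrast is that of the oocyte. Kdm4a encodes a demethylase of histone H3. The library kit includes a step that depletes ribosomal RNA, so the level of the rRNA class is what that step left behind. How many embryos a library holds is not given in the labels, and p-values measure the spread between these libraries, which may be in part technical.

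As background, large and small subunit rRNA form the body of the ribosome and are made by RNA polymerase I, while 5S rRNA, 7SL, 7SK, the Y RNAs (HY names) and BC1 are short transcripts of RNA polymerase III. A 2-cell mouse embryo lives largely on ribosomes stored in the oocyte and starts its own transcription at this stage. 7SL is the scaffold of the signal recognition particle, which brings nascent secretory proteins to the endoplasmic reticulum, and the B1 SINEs of rodents (Alu family in the annotation) descend from it. 7SK holds the elongation factor P-TEFb in an inactive particle. BC1 is a rodent RNA best known from neurons, and the ID family of SINEs is related to it. Y RNAs bind the Ro60 protein, and 4.5S RNA is a small RNA known from rodents.

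Several of these rows have a well-defined gene in the RefSeq annotation of GRCm38.p6, the assembly also called mm10. Rn7sk, the 7SK gene, lies at chr9:78175302-78175633. The 7SL genes Rn7s1 and Rn7s2 lie at chr12:69159295-69159593 and chr12:69361183-69361481. Rny1 and Rny3, the genes of the Y RNAs named HY1 and HY3, lie at chr6:47788070-47788180 and chr6:47781624-47781724. A row pools all copies of its repeat name across the genome, including inactive copies inside other genes, and the counts do not say which copy a read came from.

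The Bc1 gene lies on the plus strand at chr7:144914470-144914623, and its first 50 bases are shown because BC1_Mm varied little between libraries and because its promoter lies within the RNA itself. The sequence is that of RefSeq (GRCm38.p6, chr7:144914470-144914519), and the capitals mark the match to box A, the first part of the internal promoter that RNA polymerase III uses at tRNA-like genes, by its consensus on both strands.
Bc1: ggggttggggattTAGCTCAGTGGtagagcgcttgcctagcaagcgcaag
The match runs from base 14 to base 24 of the RNA. It was the 1 match in the 300-base window around the Bc1 start, and 11.8% of 32851 such windows of the genome held one. The tRNA-like start is what BC1 shares with ID elements, and related copies can therefore share reads.

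Library totals ran from 7952526 counts in KO replicate 5 to 18902360 in WT replicate 4. The 11 rows together took 5.17% to 7.75% of a KO library and 5.67% to 7.13% of a WT library. LSU-rRNA_Hsa alone made up a median of 83.1% of those counts in KO and 81.0% in WT. Levels below are normalised CPM, read counts relative to library size (CPM) after correction for composition (TMM), and they are not per length. KO replicate 5 and WT replicate 2 were the shallowest libraries and stood apart in several of these RNAs, so results that rest on them are also given without them. These levels are relative to each library, and an amount of RNA per embryo or per cell cannot be read from them.

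Of the 9 rows with enough counts to test, none passed an adjusted p under 0.05 between the genotypes (edgeR quasi-likelihood test, Benjamini-Hochberg over all 3312 tested repeats), against 1.42% of all tested rows. At an unadjusted p under 0.05 there were 5 rows lower in KO and 0 higher (LSU-rRNA_Hsa, SSU-rRNA_Hsa, 5S, 7SK and 4.5SRNA), where 7.91% of all tested rows were lower and 5.5% higher. DESeq2 called 2 rows lower, SSU-rRNA_Hsa and 7SK (background 4.98%, 3.78% lower), and 0 were called by limma-voom with sample weights (background 2.11%, 1.87% lower). The median log2 fold change of KO over WT was -0.32 over the 9 rows and 0.01 over all tested repeats. These counts and medians depend on the scaling. With total counts in place of TMM, 0 rows were lower and 1 was higher at an unadjusted edgeR p under 0.05. The counts were the same at an edgeR adjusted p under 0.05, where 0.996% of all tested rows were lower and 10.8% higher. The medians under that scaling were -0.03 over the 9 rows and 0.32 over all tested repeats. In all 9 rows the groups overlapped, and 2.11% of all tested rows had groups that did not overlap.

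**Figure D1:**
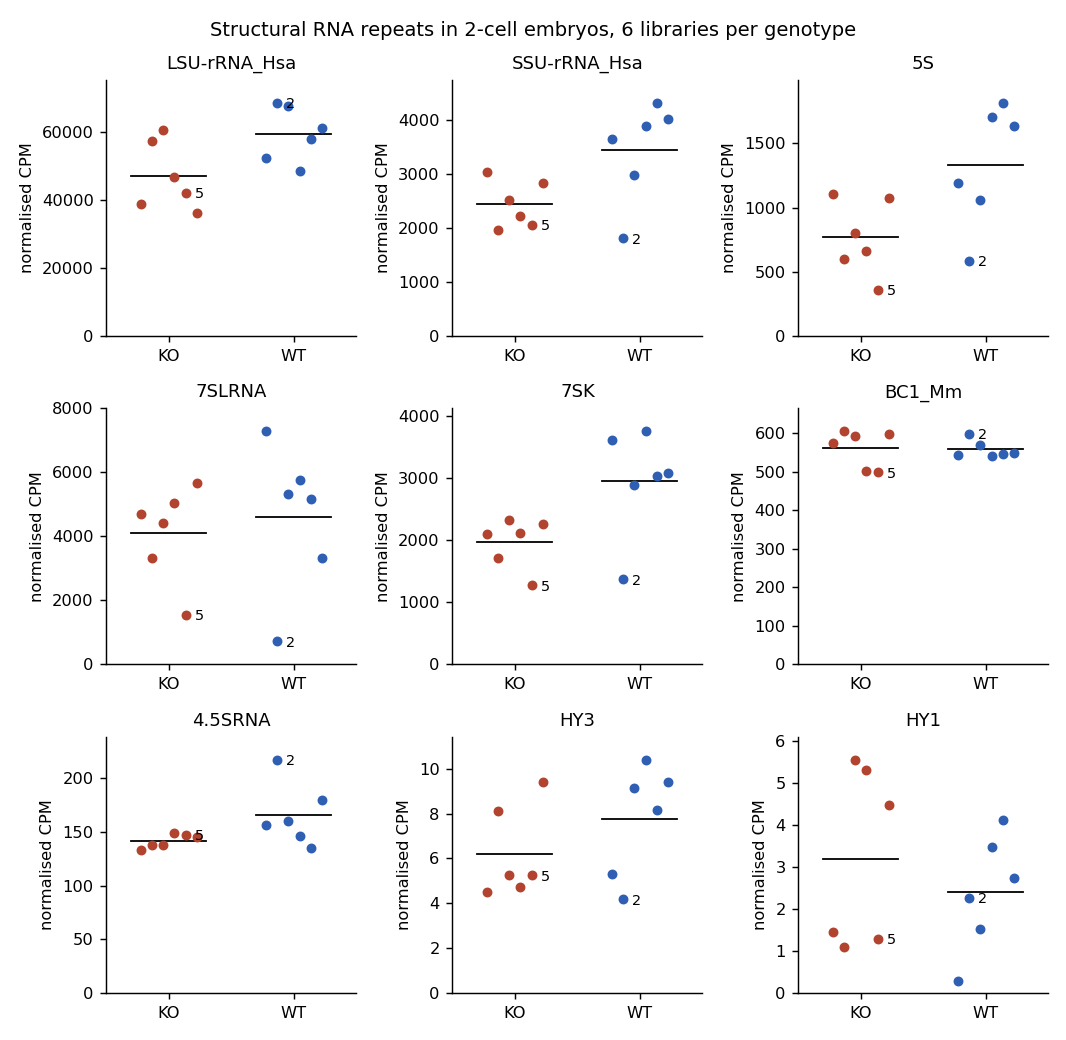
Normalised CPM of the 9 tested structural RNA rows, with KO libraries on the left and WT libraries on the right of each panel, 6 points per genotype and a bar at the mean. KO replicate 5 and WT replicate 2 carry their numbers, and 7SLRNA stood at 1549 and 720.3 in these libraries.

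Large subunit rRNA was the most counted of the 11 names. LSU-rRNA_Hsa stood at 38784, 57226, 60569, 46859, 42067 and 36201 normalised CPM in KO replicates 1 to 6, against 52403, 68527, 67653, 48434, 57990 and 61069 in WT replicates 1 to 6. Of the 6 KO libraries, 5 were under the median of WT, and the groups overlapped over much of their range. The means were 46951 ± 9971 in KO and 59346 ± 8067 in WT (SD, n = 6 each), and KO over WT came to -0.34 ± 0.13 in log2 (SE, edgeR adjusted p = 0.259). Scaled by total counts in place of TMM, the log2 fold change was -0.03 (edgeR adjusted p = 0.845). That scaling moved the median log2 fold change of all tested repeats to 0.32, and the fold changes given here are relative to the typical repeat.

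Small subunit rRNA had a larger difference in the same direction, with WT replicate 2 far from the other WT libraries. SSU-rRNA_Hsa stood at 3039, 1974, 2515, 2219, 2068 and 2844 normalised CPM in KO replicates 1 to 6, against 3660, 1811, 2979, 3902, 4324 and 4032 in WT replicates 1 to 6. The WT median exceeded each of the 6 KO libraries, and WT replicate 2 was the lowest of all 12. The means were 2443 ± 432 in KO and 3451 ± 923 in WT (SD, n = 6 each), and KO over WT came to -0.50 in log2 (SE 0.18, edgeR adjusted p = 0.195). Without WT replicate 2 the log2 fold change was -0.63 and the row passed (edgeR adjusted p = 0.0367), although KO replicate 1 still lay above WT replicate 3. With KO replicate 5 left out as well it was -0.58 and did not pass (edgeR adjusted p = 0.0627). Under total-count scaling it was -0.19 (edgeR adjusted p = 0.621). Leaving out WT replicate 2, the lowest library of this row, raised the WT mean by construction, so that call is no separate support.

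The third rRNA, 5S, is transcribed apart from the large precursor, and it had the largest fold change of the 9 tested rows under TMM scaling. It stood at 1107, 601, 804, 661, 360.2 and 1074 normalised CPM in KO replicates 1 to 6, against 1193, 587, 1056, 1704, 1815 and 1634 in WT replicates 1 to 6. KO replicate 5 was the lowest library and WT replicate 2 the next lowest. The means were 768 ± 288 in KO and 1332 ± 472 in WT (SD, n = 6 each), and KO over WT came to -0.79 in log2 (SE 0.29, edgeR adjusted p = 0.192). Leaving out single libraries kept it between -0.94 and -0.65, with edgeR adjusted p between 0.10 and 0.343.

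The proportions of the ribosomal RNAs within a library, which need no scaling, did not pass a test. SSU-rRNA_Hsa amounted to 3.45% to 7.86% of the LSU-rRNA_Hsa count in KO libraries and to 2.64% to 8.06% in WT libraries. Its log2 ratio to LSU-rRNA_Hsa was -4.26 ± 0.49 in KO and -4.15 ± 0.62 in WT (SD, n = 6 each, two-sided exact permutation p = 0.742, adjusted p = 0.978 over 9 ratios). For 5S over LSU-rRNA_Hsa the log2 ratio was -6.00 ± 0.74 in KO and -5.56 ± 0.76 in WT (n = 6 each, exact permutation p = 0.331, adjusted p = 0.745). Both ratios varied within each genotype by more than the means differed. No relation between the shares of LSU-rRNA_Hsa and the other rRNAs passed a test. Its Pearson r with SSU-rRNA_Hsa was -0.276 in KO and -0.095 in WT (n = 6 each, exact permutation p = 0.639 and 0.863, adjusted p = 0.882 for both over 10 relations, Spearman rho -0.314 and -0.0857 with adjusted p = 0.919 for both). Its r with 5S was -0.155 in KO and -0.0842 in WT (n = 6 each, exact permutation p = 0.811 and 0.872, adjusted p = 0.882 for both, rho -0.143 and -0.0857 with adjusted p = 0.919 for both). Without the 2 libraries farthest from the median LSU-rRNA_Hsa share these were -0.0475 and 0.497 for SSU-rRNA_Hsa, and 0.0421 and 0.437 for 5S, in KO and WT. On log2 normalised CPM they were -0.541 and -0.657 for SSU-rRNA_Hsa, and -0.270 and -0.642 for 5S.

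7SL varied more between libraries than between genotypes. 7SLRNA stood at 4703, 3335, 4407, 5036, 1549 and 5662 normalised CPM in KO replicates 1 to 6, against 7274, 720.3, 5327, 5747, 5157 and 3336 in WT replicates 1 to 6. The highest library was 3.66-fold above the lowest in KO and 10.1-fold in WT. In WT replicate 2 the row made up 0.0553% of all counts (95% Wilson interval 0.0539% to 0.0567%, counting error only), and in WT replicate 1 it made up 0.675% (0.671% to 0.679%).

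The genotype means of 7SLRNA were 4115 ± 1474 in KO and 4593 ± 2278 normalised CPM in WT (SD, n = 6 each), and KO over WT came to -0.16 in log2 (SE 0.41, 95% interval -1.07 to 0.75, edgeR adjusted p = 0.931). Differences anywhere within that interval remain compatible with these libraries. The sign turned without KO replicate 5 (0.012) or WT replicate 1 (0.021) and under total-count scaling (0.14).

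**Figure D2:**
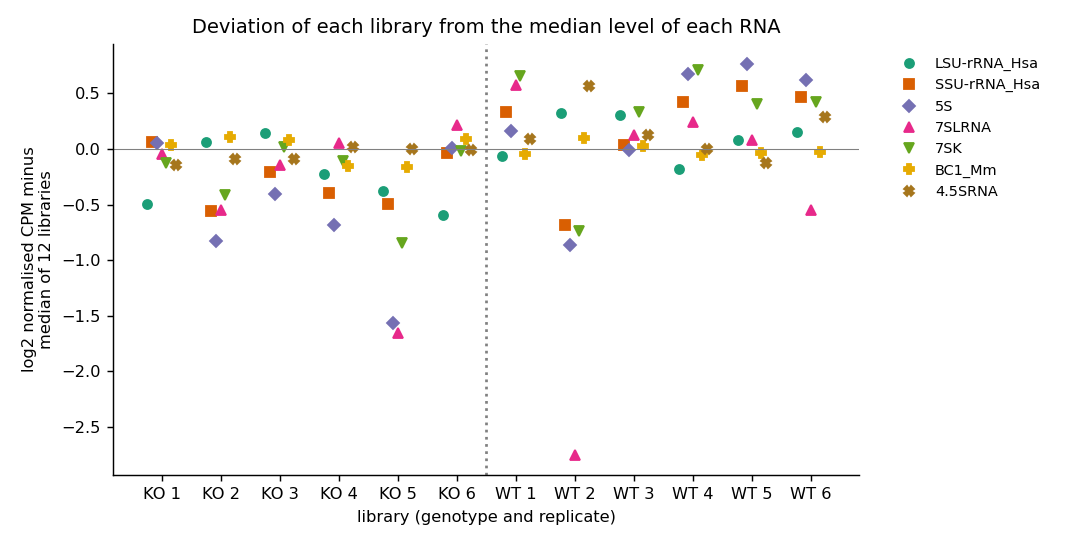
Log2 normalised CPM of 7 structural RNA rows in each library, minus the row's median over the 12 libraries, with KO libraries left of the dotted line and WT libraries right of it. WT replicate 2 was at -2.76 for 7SLRNA and KO replicate 5 at -1.65, while BC1_Mm stayed between -0.16 and 0.11 in all libraries.

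The libraries low in 7SL were low in several other structural RNAs too, but not in all. WT replicate 2 held 0.15 of the median 7SLRNA level over the 12 libraries, 0.55 of that of 5S, 0.60 of 7SK and 0.62 of SSU-rRNA_Hsa. It held 1.25 of the median for LSU-rRNA_Hsa, 1.07 for BC1_Mm and 1.48 for 4.5SRNA. KO replicate 5 held 0.32 of the median for 7SLRNA, 0.34 for 5S, 0.56 for 7SK and 0.71 for SSU-rRNA_Hsa, with 0.77 for LSU-rRNA_Hsa, 0.89 for BC1_Mm and 1.0 for 4.5SRNA. These were also the libraries with the fewest counts, 7952526 in KO replicate 5 and 10946392 in WT replicate 2, and with library size as a covariate the log2 fold change of 7SLRNA was 0.19 (edgeR adjusted p = 0.839).

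Most snRNA rows were low in WT replicate 2 as well. Over the 6 snRNA rows with at least 10 normalised CPM, the median was 0.92 of the row median in KO replicate 5 and 0.64 in WT replicate 2. The spliceosomal U1 was at 0.51 of its median in KO replicate 5 and 0.60 in WT replicate 2, U2 at 0.87 and 0.69, and U4 at 0.98 and 0.59. U17, a small nucleolar RNA, was at 0.48 in KO replicate 5 and 0.32 in WT replicate 2, and U3, of the same kind, at 0.88 and 0.33. U6 was nearer its median, at 0.98 and 0.93, as was U5, at 1.01 and 0.94. The tRNA rows were mixed. Over the 8 tRNA rows with at least 10 normalised CPM, the median was 0.94 in KO replicate 5 and 1.01 in WT replicate 2. In KO replicate 5 and WT replicate 2, tRNA-Cys-TGY was at 0.48 and 0.51, tRNA-SeC_e_-TGA at 0.57 and 0.55, and tRNA-Lys-AAA at 0.60 and 0.48. The other tRNA rows ran from 0.87 (tRNA-Leu-TTA_m_) to 1.34 (tRNA-Gln-CAA_) in KO replicate 5. In WT replicate 2 they ran from 0.99 (tRNA-Ala-GCY_) to 2.40 (tRNA-Ser-TCA_m_). Over the 16 Alu family rows, the SINEs that descend from 7SL, the median was 1.04 in KO replicate 5 and 1.1 in WT replicate 2. Over all 1445 rows with at least 10 normalised CPM it was 1.01 and 1.02. Both libraries thus had fewer 7SL counts relative to the SINEs derived from it.

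The within-library ratio gives the same in other terms. 7SLRNA amounted to 9.01%, 6.14%, 8.82%, 9.39%, 2.89% and 8.86% of the summed Alu family count in KO replicates 1 to 6, against 14.9%, 1.22%, 10.01%, 11.3%, 10.6% and 5.74% in WT replicates 1 to 6. The WT median exceeded each of the 6 KO values, while WT replicate 2 was the lowest of the 12. The log2 ratio was -3.84 ± 0.66 in KO and -3.82 ± 1.32 in WT (SD, n = 6 each, exact permutation p = 0.978, adjusted p = 0.978 over 9 ratios). Without WT replicate 2 the difference was -0.52 (adjusted p = 0.347, exact permutation) and without KO replicate 5 it was 0.24 (adjusted p = 0.887, exact permutation).

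7SK had the lowest p of the 9 rows. It stood at 2092, 1713, 2319, 2119, 1273 and 2261 normalised CPM in KO replicates 1 to 6, against 3614, 1369, 2887, 3748, 3033 and 3078 in WT replicates 1 to 6. WT replicate 2 aside, the lowest WT library exceeded the highest KO library. The means were 1963 ± 399 in KO and 2955 ± 849 in WT (SD, n = 6 each), and KO over WT came to -0.59 ± 0.21 in log2 (SE, edgeR unadjusted p = 0.0120, adjusted p = 0.175).

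The call on 7SK turned on that library. Without WT replicate 2 the means were 1963 ± 399 in KO (n = 6) and 3272 ± 383 in WT (n = 5), and the groups did not overlap (1.66% of the tested repeats had KO wholly below WT without that library). The log2 fold change was then -0.73 and passed the test (edgeR adjusted p = 0.0308), together with SSU-rRNA_Hsa, so that 2 of 9 rows were called lower where 1.35% of all tested rows were called and 1.2% were lower. WT replicate 2 was singled out in part for being low in these same rows (0.60 of the median for 7SK, 0.62 for SSU-rRNA_Hsa). Its median over all rows with at least 10 normalised CPM was 1.02. Removing it thus raised WT in these 2 rows by construction. The calls and the lack of overlap without it are no separate support for a difference. With KO replicate 5 left out as well, 7SK stood at -0.64 in log2 (edgeR adjusted p = 0.0311) and was the 1 row called lower, where 0.671% of all tested rows were called and 0.555% were lower. The DESeq2 fold change over all 12 libraries was -0.59 on the log2 scale (DESeq2 adjusted p = 0.0337). Under total-count scaling it was -0.29 (edgeR adjusted p = 0.456), so the direction stayed and the call did not.

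**Figure D3:**
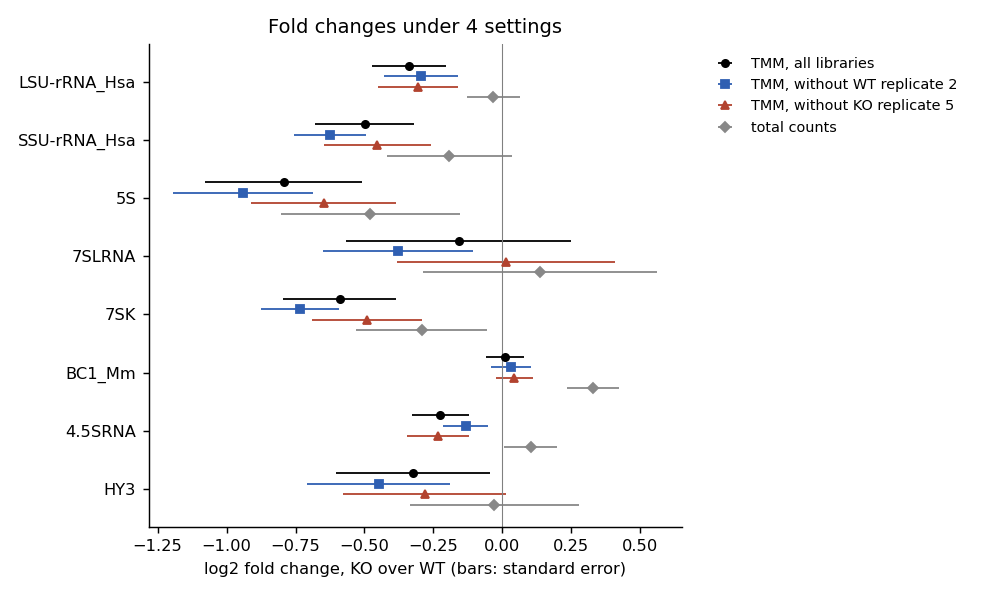
Log2 fold changes of KO over WT for 8 rows, with standard errors as bars, under TMM scaling with all 12 libraries, without WT replicate 2, without KO replicate 5, and under total-count scaling. 7SK was at -0.59, -0.73, -0.49 and -0.29, and BC1_Mm moved to 0.33 under total-count scaling.

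Libraries with a larger share of 7SL also had a larger share of 7SK, a relation that passed after adjustment in KO and not in WT; the difference between the genotypes was not tested. Their shares of counts had a Pearson r of 0.960 over the 6 KO libraries (exact permutation p = 0.00417, adjusted p = 0.0417 over 10 relations) and of 0.904 over the 6 WT libraries (exact permutation p = 0.0194, adjusted p = 0.0972). Spearman's rho was 0.943 in KO and 0.886 in WT (n = 6 each, exact permutation p = 0.0167 and 0.0333, adjusted p = 0.167 for both). Without the 2 libraries farthest from the median 7SLRNA share, r was 0.894 in KO, where replicates 5 and 6 were left out, and 0.557 in WT, where replicates 1 and 2 were left out, so in WT the relation rested largely on those libraries. Shares of one total depend on each other. On log2 normalised CPM, r was 0.963 in KO and 0.962 in WT (exact permutation, adjusted p = 0.0833 and 0.0972), and neither passed. The share of 7SLRNA had an r of 0.695 with that of the Alu family in KO and of -0.082 in WT (n = 6 each, exact permutation p = 0.118 and 0.864, adjusted p = 0.394 and 0.882, rho 0.657 and 0.0857 with adjusted p = 0.583 and 0.919). Those r were 0.811 in KO and -0.755 in WT without the 2 farthest libraries, and 0.258 and -0.787 on log2 normalised CPM. With LSU-rRNA_Hsa, the r of 7SLRNA was -0.0779 in KO and -0.300 in WT (n = 6 each, exact permutation p = 0.882 and 0.589, adjusted p = 0.882 for both, rho -0.371 and -0.429 with adjusted p = 0.919 for both). It was 0.231 and 0.916 without the 2 farthest, and -0.069 and -0.635 on log2 normalised CPM. None of these passed.

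Relative to 7SL, 7SK stood at 44.5%, 51.4%, 52.6%, 42.1%, 82.2% and 39.9% of the 7SLRNA count in KO replicates 1 to 6, against 49.7%, 190.1%, 54.2%, 65.2%, 58.8% and 92.3% in WT replicates 1 to 6. In 5 of 6 KO libraries the ratio lay below the WT median. The log2 ratio was -0.99 ± 0.38 in KO and -0.41 ± 0.72 in WT (SD, n = 6 each, exact permutation p = 0.104, adjusted p = 0.468). WT replicate 2 was the library in which 7SK outnumbered 7SL.

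BC1 was steady across libraries and genotypes. BC1_Mm stood at 574, 604, 593, 502, 499 and 597 normalised CPM in KO replicates 1 to 6, against 543, 598, 569, 539.6, 546 and 549 in WT replicates 1 to 6. The means were 561 ± 48.2 in KO and 557 ± 22.5 in WT (SD, n = 6 each), and KO over WT came to 0.01 in log2 (SE 0.07, 95% interval -0.14 to 0.16, edgeR adjusted p = 0.979). Its coefficient of variation was 8.59% in KO and 4.04% in WT. Under total-count scaling BC1_Mm was the 1 row called higher in KO, at 0.33 in log2 (edgeR adjusted p = 0.0319), where 11.8% of all tested rows were called, 10.8% as higher, and the median repeat stood at 0.32.

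The proportion of BC1 to the ID elements related to it did not pass a test between the genotypes. BC1_Mm amounted to 12.3%, 12.8%, 13.0%, 10.9%, 10.6% and 11.9% of the summed ID family count in KO replicates 1 to 6, against 12.7%, 12.3%, 12.6%, 13.0%, 12.2% and 11.7% in WT replicates 1 to 6. The log2 ratio was -3.07 ± 0.12 in KO and -3.01 ± 0.06 in WT (SD, n = 6 each, exact permutation p = 0.281, adjusted p = 0.745). Against 7SL, which was far less steady, the log2 ratio was -2.77 ± 0.63 in KO and -2.75 ± 1.27 in WT (SD, n = 6 each, exact permutation p = 0.970, adjusted p = 0.978).

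Of the 9 within-library ratios, that of 4.5SRNA to the Alu family passed the test, and it was lower in KO. 4.5SRNA amounted to 0.255%, 0.255%, 0.277%, 0.278%, 0.275% and 0.228% of the summed Alu family count in KO replicates 1 to 6, against 0.322%, 0.369%, 0.301%, 0.288%, 0.279% and 0.310% in WT replicates 1 to 6. The highest KO value was still under the lowest WT value, with little room between KO replicate 4 and WT replicate 5. The log2 ratio was -8.58 ± 0.11 in KO and -8.33 ± 0.14 in WT (SD, n = 6 each), a difference of -0.25 (exact permutation test, two-sided, p = 0.0022, the smallest that 6 libraries against 6 can give, adjusted p = 0.0195 over 9 ratios). Without KO replicate 6, the lowest library, the difference was -0.21 and no longer passed (exact permutation, adjusted p = 0.0779). The groups still did not overlap there, since KO replicate 4 and WT replicate 5 were both kept, and fewer libraries allow fewer regroupings.

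The level of 4.5SRNA itself was less clear. It stood at 133, 138, 138, 149, 147 and 146 normalised CPM in KO replicates 1 to 6, against 157, 217, 160.1, 147, 135 and 180.0 in WT replicates 1 to 6. The KO libraries lay close together and below the WT median, while WT replicate 5 was lower than 5 of the 6 KO libraries. The means were 142 ± 6.34 in KO and 166 ± 29.2 in WT (SD, n = 6 each), and KO over WT came to -0.22 in log2 (SE 0.10, edgeR adjusted p = 0.363), which turned to 0.10 under total-count scaling. Without WT replicate 2, the highest library, it was -0.13 (edgeR unadjusted p = 0.129, adjusted p = 0.535). Of the 16 Alu family rows, 13 were higher and 3 lower in KO by the sign of the fold change (median log2 0.05), with 0 called by edgeR (1 was lower at an unadjusted p under 0.05). The ratio to 7SLRNA was -4.75 ± 0.70 in KO and -4.51 ± 1.44 in WT on the log2 scale (SD, n = 6 each, exact permutation p = 0.777, adjusted p = 0.978).

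**Figure D4:**
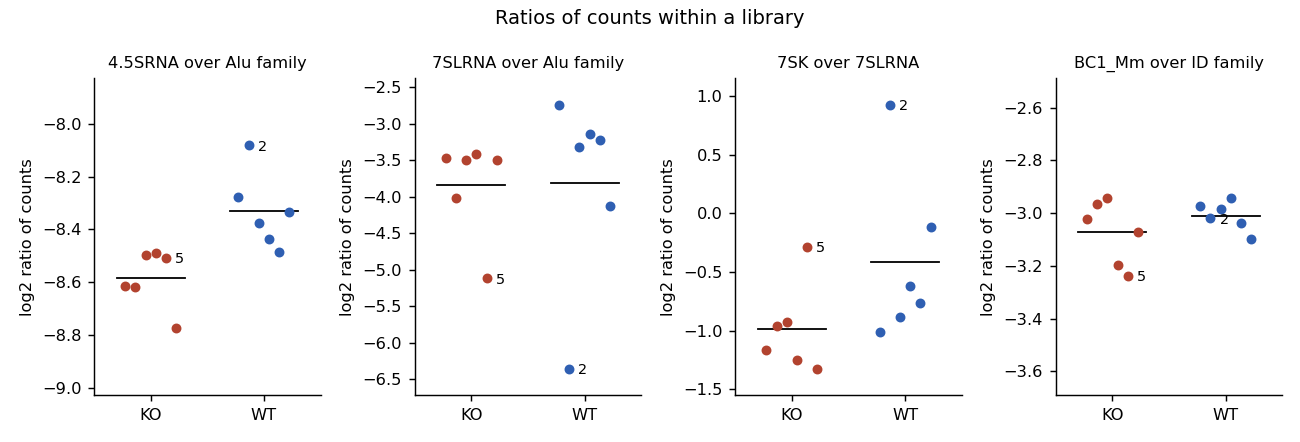
Log2 ratios of counts within each library for 4.5SRNA over the Alu family, 7SLRNA over the Alu family, 7SK over 7SLRNA and BC1_Mm over the ID family, with KO on the left, WT on the right, 6 libraries each and a bar at the mean. KO and WT do not overlap for 4.5SRNA over the Alu family, where the means are -8.58 and -8.33.

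The Y RNAs were rare. HY3 stood at 4.48 to 9.40 normalised CPM in KO (median 5.26) and at 4.17 to 10.4 in WT (median 8.65), and KO over WT came to -0.32 in log2 (SE 0.28, edgeR adjusted p = 0.693). HY1 had 30, 14, 83, 86, 11 and 81 counts in KO replicates 1 to 6, against 4, 19, 21, 63, 62 and 30 counts in WT replicates 1 to 6. Its KO levels lay in a low and a high range, 1.08 to 1.45 and 4.48 to 5.54 normalised CPM, with 3 libraries in each. For HY1, KO over WT came to 0.41 ± 0.57 in log2 (SE, edgeR adjusted p = 0.850).

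HY4 and HY5 had too few counts to test. HY4 had 4 counts in KO replicate 1 and none in the other KO libraries, against 25 counts in WT replicate 2, 14 in WT replicate 4 and none in the other WT libraries. HY5 had 32 counts in KO replicate 3 and none in the other 11 libraries. A count of 0 allows up to 3 counts in a library, which is 0.159 to 0.377 CPM at these depths.

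The spread between libraries set the rows apart from each other. Over the 6 KO libraries, the SD of log2 normalised CPM was 0.69 for 7SLRNA, 0.60 for 5S, 0.33 for 7SK, 0.30 for LSU-rRNA_Hsa, 0.25 for SSU-rRNA_Hsa, 0.13 for BC1_Mm and 0.065 for 4.5SRNA. Over the 6 WT libraries it was 1.22 for 7SLRNA, 0.62 for 5S, 0.53 for 7SK, 0.47 for SSU-rRNA_Hsa, 0.24 for 4.5SRNA, 0.20 for LSU-rRNA_Hsa and 0.057 for BC1_Mm. The median over the 1445 repeats with at least 10 normalised CPM was 0.26 in KO and 0.24 in WT. Of these repeats, 97.9% had a smaller SD than 7SLRNA in KO and 99.7% in WT, whereas 12.9% had a smaller SD than BC1_Mm in KO and 1.52% in WT. A low spread was not particular to BC1_Mm. Over the 4 ID family rows, the median SD was 0.076 in KO and 0.11 in WT. The ID4 row lay below BC1_Mm in both genotypes (0.032 in KO and 0.053 in WT).

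Among repeats of similar level, 7SLRNA and 5S again had a large spread, while the other rows stood out less evenly. Of 57 repeats with a mean within 2-fold of that of 7SLRNA, 1 had a larger SD in KO and 0 in WT. Of 128 repeats around the level of 5S, 0 had a larger SD in either genotype. Of 182 around the level of BC1_Mm, 117 had a larger SD in KO and 176 in WT. Of 336 around the level of 4.5SRNA, 329 had a larger SD in KO and 78 in WT. Around 7SK it was 8 of 92 in KO and 1 in WT, and around SSU-rRNA_Hsa 22 of 78 in KO and 2 in WT. LSU-rRNA_Hsa had 5 repeats near its level, of which 3 had a larger SD in KO and 4 in WT.

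**Figure D5:**
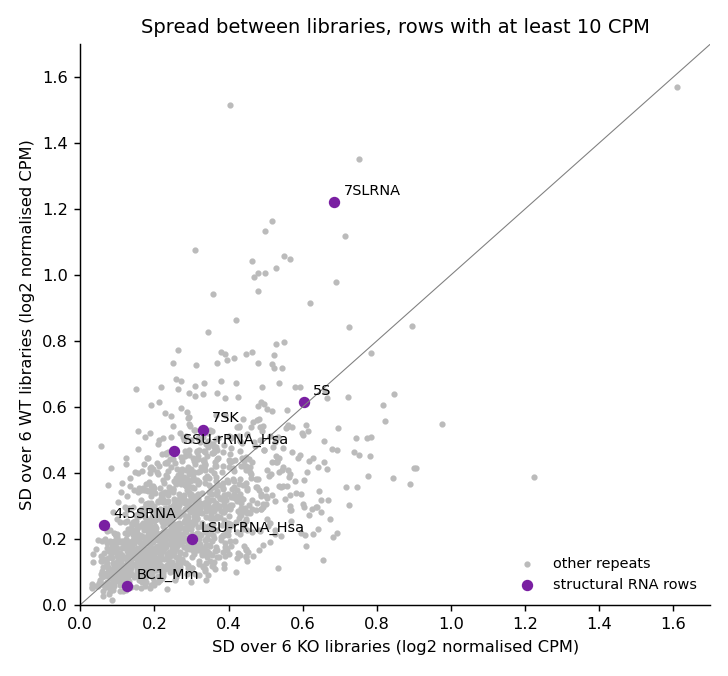
SD of log2 normalised CPM over the 6 KO libraries (horizontal) and the 6 WT libraries (vertical) for repeats averaging 10 normalised CPM or more, each grey point 1 repeat, with the 7 structural RNA rows of that level in purple and a line of equal spread. 7SLRNA lies at 0.69 and 1.22, BC1_Mm at 0.13 and 0.057.

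The repeats whose log2 normalised CPM was most like each of these rows over the 12 libraries, out of 891 non-simple repeats with at least 10 normalised CPM, differed by row. U1, the snRNA that recognises the upstream splice site, was among the 3 most alike for SSU-rRNA_Hsa (Pearson r = 0.93), 5S (0.925) and 7SK (0.832), and U2 was the second for SSU-rRNA_Hsa (0.858). For 5S the second was the selenocysteine tRNA row (0.867). For 7SLRNA the closest was RMER17A, an LTR element of the ERVK family (0.861, or 0.807 without WT replicate 2), followed by U17 (0.802, or 0.661). For LSU-rRNA_Hsa all 3 were LTR elements, MER89 (0.919), ORR1A3 (0.902) and ORR1A0 (0.892). For 7SK the closest was ERVB7_1-LTR_MM (0.863), for BC1_Mm it was MLT1O (0.801) and for 4.5SRNA RLTR12D (0.828, or 0.693 without WT replicate 2). These values describe 12 libraries that share a scaling step and hold both genotypes, and they were the highest of many.

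Among the other structural RNAs, no row was called by edgeR either. Of 9 tested snRNA rows, 7 had a negative log2 fold change (median -0.33), and of 39 tested tRNA rows, 23 were negative (median -0.13). Over all 3312 tested repeats, 1616 were negative (median 0.01). U1 stood at 325 ± 129 normalised CPM in KO and 494 ± 153 in WT (SD, n = 6 each), and KO over WT was -0.60 in log2 (edgeR unadjusted p = 0.0383, adjusted p = 0.322). At an unadjusted p under 0.05, 1 snRNA row was lower and 0 were higher, and 4 tRNA rows were lower and 1 higher. Over all tested rows, 7.91% were lower and 5.5% higher at that threshold.

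As shares of all counts, the rRNA class made up 4.79% to 6.94% of KO libraries (mean 5.55%) and 5.17% to 6.26% of WT libraries (mean 5.74%). Class srpRNA made up 0.467% ± 0.193 in KO and 0.425% ± 0.218 in WT, and class RNA 0.221% ± 0.0569 in KO and 0.271% ± 0.0900 in WT (SD, n = 6 each). The scRNA class, nearly all BC1_Mm and 4.5SRNA, made up 0.0703% to 0.0938% of KO libraries and 0.0633% to 0.0677% of WT libraries. The groups did not overlap for scRNA, which is the total-count view of the levels given above, and no test was made on sums over these rows. Under total-count scaling the median log2 fold change of all tested repeats was 0.32, and 10.8% of them were called higher by edgeR. How many repeats separate the groups under that scaling is not given here, so the lack of overlap is not read as a trait of scRNA. The differences depended on the denominator: with the LTR class left out of it, KO minus WT was 0.0029 percentage points for scRNA (0.014 over all counts), -2.41 for rRNA (-0.197 over all counts) and -0.19 for class RNA (-0.05 over all counts). For srpRNA, higher in KO over all counts, the sign turned (-0.065). Class snRNA stood at 0.129% ± 0.0402 in KO and 0.137% ± 0.0406 in WT, and class tRNA at 0.192% ± 0.0247 in KO and 0.182% ± 0.0290 in WT.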

How the data were processed

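Each library's deposited file gives estimated counts for every repeat name, all of them whole numbers and unscaled by the authors. The submitters' processing notes name mm10, Trimmomatic 0.32 and edgeR without their roles. The aligner, repeat annotation, counting program and use of strand are, for these libraries, not given in the sources used here. Groups and replicate numbers come from the sample titles. Members and lists were chosen with earlier results of these data known.

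All repeat rows kept by filterByExpr were fitted with edgeR 4.0.16 in R 4.3.3 (TMM, quasi-likelihood F test, genotype as the only term, Benjamini-Hochberg, threshold 0.05), with standard errors from the F statistic. The test was checked on simulated counts with known changes, and all libraries bear 1 pool name. Within-library ratios needed at least 10 counts in each library (HY1 over HY3 did not have them, so 9 of 10 planned ratios were computed) and were compared by exact permutation, two-sided, with scipy 1.17.1. Wilson intervals on the shares of single libraries cover counting error only: no molecular identifiers were counted, so reads are not independent molecules. Intervals on fold changes were built from the standard errors of the edgeR fit and reflect the spread between libraries. Named rows were all members, and for each with at least 10 normalised CPM the 3 other repeats most like it. Alternatives were scaling by total counts, RLE, upper quartile or rows outside the members, DESeq2 1.42.0, limma-voom (limma 3.58.1), edgeR's robust option, no filter or a stricter one, blocking on replicate number, a covariate for library size and removal of libraries. No pair of libraries within a group agreed within sampling noise (30 pairs, chi-square per degree of freedom 25.0 to 143.8).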

Additional observations from a re-analysis of the deposited data

Results flagged for a closer look

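Within groups of 6 libraries, the lowest or highest value was compared with its nearest neighbour (Dixon's test at 95%). Of 40 groups tested, 6 held a library that stood apart, where chance gives about 1 in 20, and all were WT replicate 2 or KO replicate 5. 7SK stood at 1369 normalised CPM in WT replicate 2, against 2887 to 3748 in the other WT libraries. The log2 ratio of 7SLRNA to LSU-rRNA_Hsa was -6.57 in WT replicate 2, against -4.19 to -2.85 in the others. The log2 ratio of 4.5SRNA to 7SLRNA was -3.39 in KO replicate 5 (others -5.28 to -4.59) and -1.73 in WT replicate 2 (others -5.53 to -4.21). That of BC1_Mm to 7SLRNA was -0.27 in WT replicate 2, against -3.74 to -2.60. That of 7SLRNA to the Alu family was -5.11 in KO replicate 5, against -4.02 to -3.41. Of these 6 values, 5 are ratios that hold 7SLRNA and are not independent of each other.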

How the results depend on the processing

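No row was called by edgeR with all 12 libraries under TMM. The count of rows called was 1 higher under total-count scaling and 2 lower with DESeq2. When single libraries were left out it was 0 to 2 lower (2 without WT replicate 2). Without WT replicate 2 and KO replicate 5 it was 1 lower. WT replicate 2 was itself low in the rows called without it, so those calls are no separate support. The log2 fold change of 7SLRNA turned to 0.14 under total-count scaling and 0.19 with library size as a covariate, and ranged from -0.38 to 0.021 without single libraries. That of BC1_Mm turned to -0.0025 with limma-voom and ranged from -0.011 to 0.044, and that of 4.5SRNA turned to 0.10 under total-count scaling. The ratio of 4.5SRNA to the Alu family (-0.25) kept its sign throughout, and ranged from -0.28 to -0.20 without single libraries. It was not called with the replicate block (-0.25, exact sign flips, adjusted p = 0.281, where 6 pairs can give no p under 0.0313). Nor was it called without WT replicate 2 and KO replicate 5 (-0.22, exact permutation, adjusted p = 0.0714). There the unadjusted p was the smallest that 5 libraries against 5 can give, so this ratio could not pass alone and the lost call decides nothing. Without the same pair, the ratio of 4.5SRNA to 7SLRNA turned to 0.053 and that of BC1_Mm to 7SLRNA to 0.25. Without single libraries these ranged from -0.50 to 0.32 and from -0.24 to 0.48, and 7SLRNA to the Alu family from -0.52 to 0.24, 7SLRNA to LSU-rRNA_Hsa from -0.14 to 0.61 and SSU-rRNA_Hsa to LSU-rRNA_Hsa from -0.33 to 0.012. With the LTR class left out of the denominator, the KO minus WT difference in percent of counts moved to -2.41 for rRNA, 0.0029 for scRNA and -0.19 for class RNA. For srpRNA it turned negative, to -0.065. The r of 7SLRNA with 7SK in KO was not called on log2 normalised CPM (0.963). It was 0.894 without the 2 farthest libraries, where too few libraries remained for any relation to pass alone after adjustment. Without the 2 farthest libraries, the r of LSU-rRNA_Hsa turned to 0.497 with SSU-rRNA_Hsa in WT, to 0.0421 and 0.437 with 5S in KO and WT, and to 0.231 and 0.916 with 7SLRNA in KO and WT. On log2 normalised CPM these r stayed negative. In WT they were -0.657 with SSU-rRNA_Hsa, -0.642 with 5S and -0.635 with 7SLRNA, and that of 7SLRNA with the Alu family was -0.787. None of these passed in either setting. The causes were not tested. Same-numbered libraries deviated together in 2 of 6 pairs (r over 0.1), so the numbers are not taken to pair them; under the replicate block 0 rows were called, and 2 KO and 1 WT libraries were closest to their own number.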
